A study of Mus musculus with 5 samples.

Results

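The 10 genes described here carry the signal of leukaemia inhibitory factor (LIF) from the cell surface to its first targets: Lifr, Il6st, Jak1, Jak2, Stat3, Socs3, Junb, Bcl3, Pim1 and Pim3. They are a list of names, chosen with earlier results of these data known but by a rule that uses no measured value, and all 10 were measured among the 19938 genes that the array's annotation names singly. A gene was represented by its probe set of highest mean value on the 5 arrays, and only Socs3 had a further probe set. None of the 10 passed the test of doxycycline-treated against untreated cells, which only 3 of the 19938 genes passed. The groups were apart in 2 of them. Pim1 lay higher on every treated array, as did 1.65% of all genes. Socs3 lay lower on every treated array, as did 3.08% of all genes.

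LIF is the cytokine that keeps mouse embryonic stem (ES) cells self-renewing in serum culture. It joins the LIF receptor to the shared signalling subunit gp130, and the JAK kinases bound to their intracellular tails then phosphorylate docking tyrosines, to which the transcription factor STAT3 is recruited. Phosphorylated STAT3 pairs up, enters the nucleus and switches on targets that include its own inhibitor Socs3. Such signalling runs largely through phosphorylation of proteins that are already present, which mRNA arrays do not measure.

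RNA was measured on 5 arrays from mouse ES cells named tetO-Satb1, after a doxycycline-inducible promoter and Satb1, the gene of a chromatin protein. The series title speaks of wild-type cells, but every sample title carries the transgene, and the uninduced arrays are labelled as control in genotype. Cells without doxycycline (DOX) filled 2 arrays, called uninduced below, and cells given DOX for 24 h filled 3 arrays, called induced; the RNA of both was taken 48 h after passaging. All cells of both groups grew in serum with LIF, so that the comparison concerns cells supplied with the ligand. Activity of the pathway was not measured, and no culture without LIF was analysed here. The labels give no strain, clone, DOX dose or separate culture for an array, and there was no DOX-treated line without the transgene. The p-values therefore reflect only how far these arrays differed, possibly for technical reasons, and the effects of DOX and of Satb1 cannot be told apart. In bulk RNA, fewer cells of a type and less RNA per cell cannot be told apart either.

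Values are deposited log2 values, with array medians between 5.05 and 5.07 over the 19938 genes. Satb1 was at 4.95 and 5.34 on the uninduced arrays and at 8.61, 8.79 and 8.68 on the induced arrays, as the labels say. This change of 3.55, 11.7-fold, did not itself pass limma's test over all genes (adjusted p = 0.229) and passed with the shared spread described below (adjusted p = 0.0038), so missing limma's threshold says little about a gene here. ES cell markers were present, with 10 of 10 at or above the median level of all genes. Their mean was higher in 2, lower in 7 and the same in 1, with a median change of -0.0063. Over all genes the mean was higher in 39.6%, lower in 45.3% and the same in 15.1%. Of these markers only Tdgf1, the gene of the Nodal co-receptor Cripto, lay lower on every induced array (log2 change -0.21). Over all genes 3.08% did so. The treatment protocol names irradiated feeder cells, which a settling step of 10 min was meant to remove before RNA was made. The summed signal of feeders was followed as the mean level of 21 measured fibroblast markers, at 4.98 and 4.99 on the uninduced and 4.99, 5.01 and 5.01 on the induced arrays. Of the 21, 10 were at or above the median level of all genes, and 12 had a higher and 7 a lower mean in induced cells. The largest rises were those of Tagln (0.19) and Acta2 (0.18), in which the groups overlapped or touched. Only 1, Lox, which was below the median level, was lower on every induced array (log2 change -0.20), where 3.08% of all genes were. RMA values have no zero, so no marker can be called absent. Immediate early genes, which respond to handling and which include relatives of Junb, had a mean level over 12 genes of 5.76 and 5.78 on the uninduced and 5.76, 5.80 and 5.78 on the induced arrays. The part of feeders and of handling in the values below was not tested beyond fits with each mean as a covariate.

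Exact ties between arrays set the precision of these genes. In 9 of the 10 at least 2 arrays had exactly the same value, in 5 both uninduced arrays were equal, and in 7 an induced array equalled an uninduced one. Over all genes 90.97% had such a tie. Tied values understate how much arrays of a group vary. Beside limma's own test, a second fit therefore took its prior spread from the 1800 genes with 5 distinct values, and 95% intervals below come from that fit unless limma is named. Picking genes without ties may favour genes that vary more, so these intervals may be too wide for tied genes.

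Counted together, 0 members passed limma's test over all genes in either direction (lowest adjusted p = 0.770), against a background of 0.01% of all genes called higher and 0.00502% called lower. With the shared spread 0 members passed as well (adjusted p = 1 for each), where 0.00502% of all genes did. At an unadjusted p under 0.05, limma gave 0 members, where it gave 0.481% of all genes higher and 1.07% lower. The shared spread gave 1 member, Pim1, where it gave 0.301% of all genes higher and 0.772% lower. The mean was lower in 7 members and higher in 3, and over all genes it was lower in 45.3%, higher in 39.6% and the same in 15.1%. Their median log2 change was -0.03, against 0 over all genes, and 7 of the 10 changes were smaller than 0.1 in size. Every induced value lay above both uninduced values in 1 member (Pim1), where 1.65% of all genes did so, and below both in 1 member (Socs3), where 3.08% did so. With 1 gene in each direction, nothing particular to the members can be read from these counts.

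**Figure D1:**
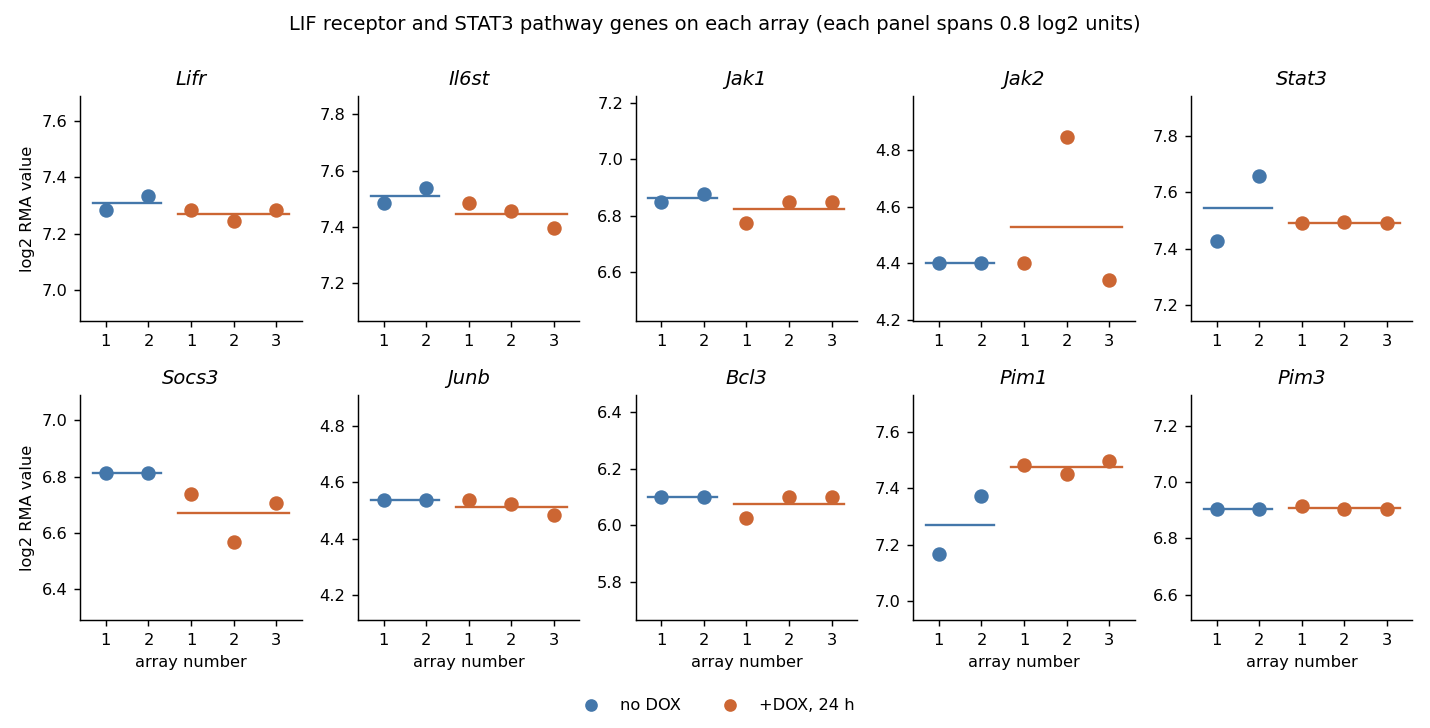
Log2 value of each of the 10 genes on the 2 uninduced arrays (blue) and the 3 induced arrays (orange), with group means as lines; every panel spans 0.8 log2 units. The induced points lie above both uninduced points for Pim1 and below them for Socs3, and overlap or touch them in the other 8 genes.

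The receptor came first. Lifr, which encodes the LIF-binding chain, was at 7.28 and 7.33 on uninduced arrays and at 7.28, 7.25 and 7.28 on induced arrays. Uninduced array 1 and induced arrays 1 and 3 had the same value, so the groups touched. Its log2 change was -0.04 with a standard error of 0.02 in limma (adjusted p = 0.770). The 95% interval ran from -0.18 to 0.10, that is, from a 1.13-fold lower to a 1.075-fold higher level.

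Il6st encodes gp130, the subunit shared by the receptors of the IL6 family. It was at 7.49 and 7.54 without DOX and at 7.49, 7.46 and 7.40 with DOX. Induced arrays 2 and 3 were the lowest, and induced array 1 equalled uninduced array 1. The change was -0.07 (95% interval -0.22 to 0.09; limma adjusted p = 0.770). Both receptor chains thus had a slightly lower mean, and neither change stood clear of the spread between arrays.

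Of the kinases, Jak1, the JAK through which gp130 chiefly signals, was at 6.85 and 6.88 on uninduced and 6.77, 6.85 and 6.85 on induced arrays. Of the induced arrays, array 1 was below the uninduced ones and the others equalled uninduced array 1. The change of -0.04 had a 95% interval of -0.19 to 0.11.

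Jak2, a second kinase that cytokine receptors use, was at 4.40 on both uninduced arrays and at 4.40, 4.85 and 4.34 on induced arrays. A single array made its difference, since induced array 2 lay 0.45 above the next induced array. Its change of 0.13 was the least precise of the 10, with a 95% interval from -0.26 to 0.52, up to a 1.431-fold higher level. Without induced array 2 the change was -0.03. Jak2 was below the median level of all genes, as was Junb, while the other 8 members lay at or above it.

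Stat3, the transcription factor of the pathway, was at 7.43 and 7.66 on uninduced arrays and at 7.49, 7.49 and 7.49 on induced arrays. The induced arrays fell between the uninduced ones, with an SD of 0.0018 (n = 3) against 0.16 (n = 2). The change was -0.05 (95% interval -0.25 to 0.15; limma adjusted p = 0.851). It was set by which uninduced array served as reference, at -0.17 without uninduced array 1 and 0.07 without uninduced array 2. Each of these fits with a lone uninduced array passed limma's test (adjusted p = 0.00075 and 0.0045) in opposite directions. Such a fit takes its spread from the induced arrays alone, and neither passed with the shared spread (adjusted p = 1).

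Uninduced array 2 bore on 4 of these changes. It was the highest of all 5 arrays in 4 members, Lifr, Il6st, Jak1 and Stat3, and it lay above uninduced array 1 in 5 members, below it in 0 and level with it in 5. Over all genes it lay above array 1 in 30.58% and below it in 26.41%. Without it the changes of Lifr, Il6st and Jak1 were -0.01, -0.04 and -0.02, while Jak2, equal on both uninduced arrays, kept its 0.13. The median over the 10 members was then -0.018 in place of -0.032.

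**Figure D2:**
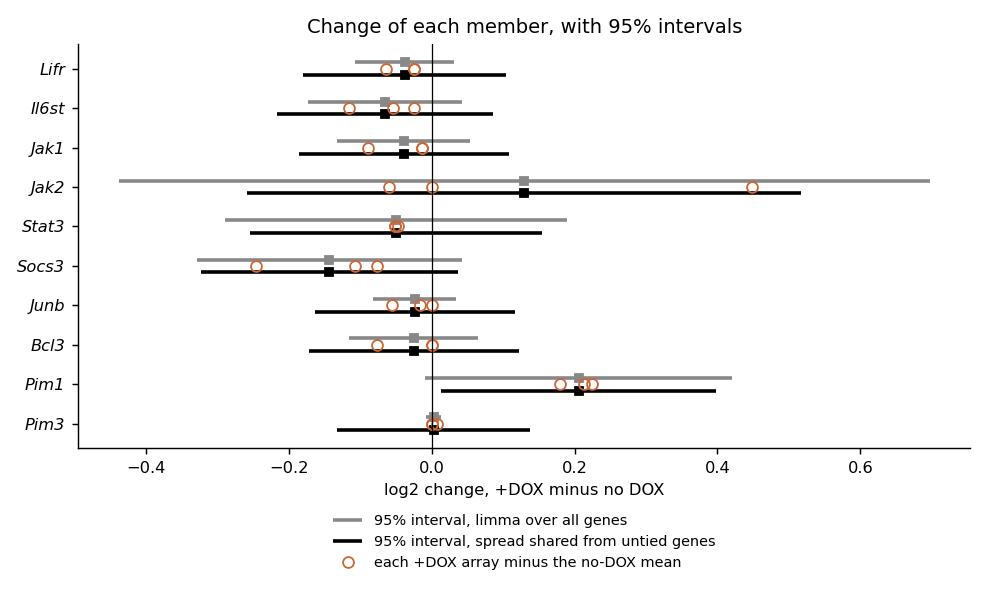
Log2 change of each gene, induced minus uninduced (squares), with 95% intervals from limma over all genes (grey) and with the spread shared from genes with 5 distinct values (black); open circles are single induced arrays minus the uninduced mean. Each shared-spread interval except that of Pim1, from 0.01 to 0.40, includes 0, and the limma intervals of tied genes such as Pim3 are far narrower than the black ones.

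Among the targets, Socs3 encodes the feedback inhibitor that binds gp130 and the JAKs and shuts the signal down. Its level was 6.81 on both uninduced arrays and 6.74, 6.57 and 6.71 on induced arrays. All induced arrays were lower, by 0.08 at the nearest, and induced array 2 was lowest, 0.14 below the next. The mean was 6.81 ± 0 (SD, n = 2) without DOX and 6.67 ± 0.09 (SD, n = 3) with DOX. The change of -0.14, or 1.10-fold lower, had a standard error of 0.06 in limma (adjusted p = 0.770) and a 95% interval of -0.32 to 0.04. A decrease at least as large was seen in 3.64% of all genes. Leaving out induced array 2 gave -0.09, and fitting the feeder mean as a covariate gave -0.07. That covariate also made the changes of Lifr, Il6st, Junb and Pim1 smaller in size and turned that of Jak2. It made those of Jak1 (-0.09), Stat3 (-0.09), Bcl3 (-0.08) and Pim3 (0.0077) larger.

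The other probe set of Socs3, matched to a different sequence record, was at 5.54 and 5.38 on uninduced and 5.26, 5.38 and 5.38 on induced arrays. Its mean was also lower, by a log2 change of -0.12. Here, however, induced arrays 2 and 3 equalled uninduced array 2, and the array that was lowest in the first probe set was not lowest in this one.

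STAT dimers bind the palindrome TTCNNNGAA, where N is any base. RefSeq promoter windows of assembly GRCm38.p6 were searched for it, from 250 bases before to 50 bases after an annotated start. The palindrome reads alike on both strands, and overlapping matches were kept. All 10 members had a window, 12 windows in all, and only the window of Socs3 held the motif. Among all 32851 windows 8.30% held it, so 1 of 12 is near that share. Of 41 other pathway genes with a window, 5 held it in at least 1 window, and 9.55% of all genes did so. The match of Socs3, 154 bases before the start used here, lies inside the annotated span of the gene, whose outermost start is further upstream. It is shown because Socs3 is the one member with a match, beside the matches of 3 related genes: Cish, a SOCS family member with a second match just after the one shown, and the STAT3 targets Sgk1 and Zfp36. Capitals mark the motif, with 10 bases on each side, written along the strand of the gene. A match is a description of the letters and not evidence of binding.
Socs3, chr11:117969502-117969530, minus strand: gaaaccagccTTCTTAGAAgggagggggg
Cish, chr9:107296649-107296677, plus strand: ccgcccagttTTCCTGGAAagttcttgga
Sgk1, chr10:21881951-21881979, plus strand: gaaaaaccaaTTCAAAGAAccctcccaag
Zfp36, chr7:28379227-28379255, minus strand: acagcctgacTTCTGCGAAccgacagtcg

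The genes with these matches did not share a direction. Of the pathway genes whose matches are not shown, Gab1 had a change of -0.06 and Il31ra did not vary between arrays. Cish stood at 5.43 on each of the 5 arrays, without any difference. Sgk1, which encodes a serum- and glucocorticoid-regulated kinase, had a change of -0.04, and Zfp36, which encodes an mRNA-destabilising protein, had 0.12, neither past the test (limma adjusted p = 0.770 for both).

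Pim1 had the largest change of the 10. It encodes a serine/threonine kinase that promotes survival and proliferation and is a known STAT3 target. Levels were 7.17 and 7.37 without DOX and 7.48, 7.45 and 7.50 with DOX. The groups were separated by 0.08, less than the 0.20 between the uninduced arrays, and the induced arrays lay within 0.05 of each other. The mean was 7.27 ± 0.14 (SD, n = 2) without DOX and 7.48 ± 0.02 (SD, n = 3) with DOX, a change of 0.21 or 1.15-fold higher. The standard error in limma was 0.07 (adjusted p = 0.770), and 1.07% of all genes had an increase at least as large. The shared-spread 95% interval of 0.01 to 0.40 left out 0, at an unadjusted p of 0.040 and an adjusted p of 1. The size rested on the uninduced arrays, being 0.10 without array 1 and 0.31 without array 2, and the latter fit passed limma's test (adjusted p = 0.036), again with the spread of the induced arrays alone. Leaving out an induced array kept it between 0.20 and 0.22.

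Pim3, the paralogue also reached by LIF, was at 6.91 on every array, with only induced array 1 differing, by 0.0077. Its change was 0.0026 with a 95% interval of -0.13 to 0.14, or 1.10-fold in either direction. That width comes almost wholly from the shared prior, since Lif, equal on all 5 arrays, had an interval of -0.135 to 0.135. The interval therefore says little about the precision of Pim3 itself. Limma's own interval for Pim3, from -0.0078 to 0.01, rests on tied values. The difference between Pim1 and Pim3 was not tested.

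Junb encodes an AP-1 subunit and is an early target of LIF. It was at 4.54 on both uninduced arrays and at 4.54, 4.52 and 4.48 on induced arrays, where induced array 1 equalled the uninduced value. Its change was -0.02 (95% interval -0.16 to 0.12). Its relatives Jun and Fos had changes of -0.07 and 0.07, and Jund, at 6.28, was level across the arrays.

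Bcl3, an atypical IkB protein gene linked to STAT3 in ES cells, was at 6.10 on every array except induced array 1, at 6.02. That array alone made its change of -0.03 (95% interval -0.17 to 0.12), which was 0 without it. Nfkbiz and Nfkbia, which encode other IkB proteins, did not vary between arrays. For the 10 members together, the largest difference that a shared-spread interval allowed was the 1.431-fold of Jak2.

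The other genes of the pathway were taken from 6 lists with 56 genes, of which 51 were measured. None passed the test (0 higher and 0 lower; lowest limma adjusted p = 0.770; adjusted p = 1 with the shared spread), and at an unadjusted p under 0.05 either fit gave Stat5a as higher and Pias1 as lower, where limma gave 0.481% of all genes higher and 1.07% lower and the shared spread 0.301% and 0.772%. The mean was higher in 17, lower in 24 and identical in 10, with a median change of 0. The shares over all genes were 39.6%, 45.3% and 15.1%. All induced arrays lay above both uninduced arrays in 3 (5.88%, against 1.65% of all genes) and below them in 3 (5.88%, against 3.08%).

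The ligands were mostly at low levels, with 2 of 8 at or above the median of all genes. Lif itself was at 5.07 on all 5 arrays, and the LIF protein came with the medium. Il27, which encodes a subunit of the cytokine IL-27, was at 5.90 and 5.73 without DOX and 6.04, 5.92 and 6.01 with DOX, a change of 0.17. Of the ligands 6 had a higher and 0 a lower mean, with a median change of 0.027. Over all genes 39.6% had a higher and 45.3% a lower mean. In Il6 and Ctf2 only induced array 1 differed from the rest. In Il11, Osm and Ctf1 induced arrays lay on both sides of the uninduced mean. Of the other IL6 family receptors, 4 were measured, with changes from -0.16 (Osmr, the oncostatin M receptor) to 0.16 (Il6ra, the IL6 receptor).

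Among the other JAK and STAT genes, Stat5a, a STAT best known from growth hormone and prolactin signalling, was the one that separated. It was at 5.36 and 5.26 on uninduced and 5.52, 5.48 and 5.56 on induced arrays. The groups were 0.12 apart, and the change was 0.21 (95% interval 0.05 to 0.37; limma adjusted p = 0.770). Tyk2, Stat2 and Stat6 did not differ between any arrays, and the changes of Stat4 and Stat5b were 0.04 and 0.08.

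Of 14 other inhibitors of the pathway, the mean was lower in 8, higher in 3 and the same in 3. The shares over all genes were 45.3%, 39.6% and 15.1%. Pias1, which encodes a SUMO ligase that restrains STATs, was at 6.82 and 6.72 without DOX and 6.56, 6.62 and 6.62 with DOX, a change of -0.17 (95% interval -0.32 to -0.0093; limma adjusted p = 0.770). The closest relative of Socs3 in function, Socs1, had a mean change of -0.19 that came from induced array 2. It was at 4.96 and 4.83 on uninduced arrays, at 4.83 on induced arrays 1 and 3, and at 4.43 on induced array 2, and the change without that array was -0.06. Socs6, Socs7 and Cish did not vary at all, and the changes of Socs2, Socs4 and Socs5 were 0.01, -0.02 and 0.09. No SOCS gene other than Socs3 separated the groups.

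**Figure D3:**
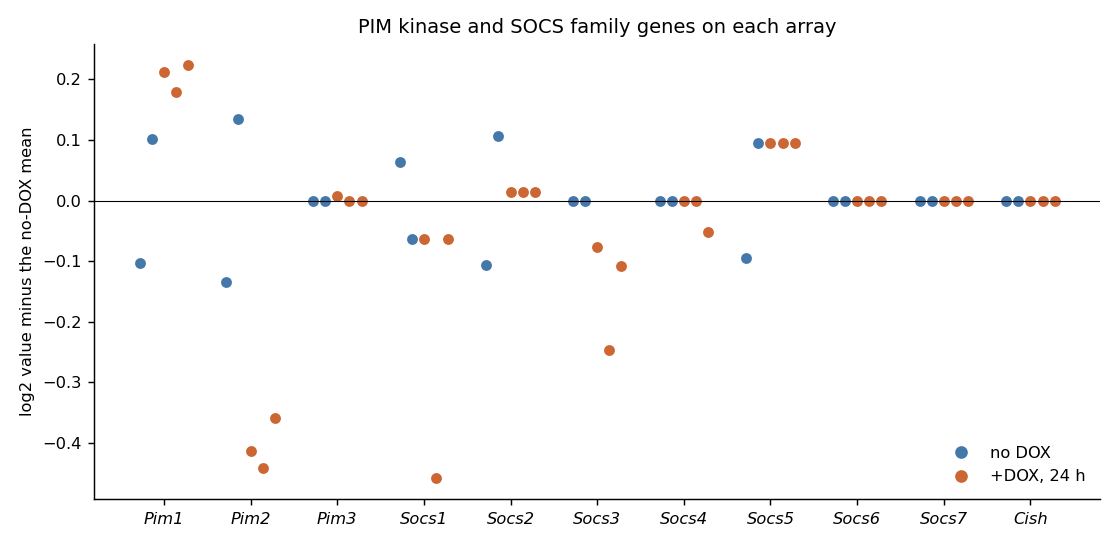
Log2 value of each PIM kinase and SOCS family gene on each array, minus the mean of the uninduced arrays (blue, uninduced; orange, induced). Pim1 and Pim2 lie apart on opposite sides of 0, Pim3 is flat, and Socs3 is the one SOCS gene with all induced points below both uninduced points; induced array 2 is the lowest point of Socs1 and Socs3.

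The third PIM kinase, Pim2, had the largest change of the PIM family. It was at 6.53 and 6.80 on uninduced arrays and at 6.25, 6.22 and 6.30 on induced arrays. The groups were 0.22 apart, and the change of -0.40 had a 95% interval of -0.63 to -0.18 (unadjusted p = 0.0051 with the shared spread, adjusted p = 1; limma adjusted p = 0.770). It ranged from -0.54 to -0.27 with single arrays left out. Changes at least as large in size occurred in 0.196% of all genes. Pim1 at 0.21, Pim3 at 0.0026 and Pim2 at -0.40 thus covered both directions within a single family, and none of them passed the test over all genes.

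Adaptor and enzyme genes of the branches to ERK and PI3K had small changes in all 8, from -0.07 (Pik3r1, a PI3K regulatory subunit) to 0.06 (Grb2, an SH2 adaptor). Ptpn11, the gene of the phosphatase SHP2 that binds the same gp130 tyrosine as SOCS3, had -0.0084. Grb2 lay above both uninduced arrays on each induced array, by 0.01 at the nearest.

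Other STAT3 targets had a lower mean in 8 of 11 genes, a higher mean in 2 and the same in 1, with a median change of -0.04. The 2 with a higher mean were Zfp36 (0.12) and Cebpb (0.06). Klf4, a pluripotency factor that LIF induces through STAT3, was at 6.95 and 6.91 on uninduced and 6.73, 6.26 and 6.74 on induced arrays. Its change was -0.35 (95% interval -0.73 to 0.03; limma adjusted p = 0.770) and was -0.19 without induced array 2, the array that was also lowest for Socs3 and Socs1. Tfcp2l1 and Gbx2, transcription factor genes that mediate the effect of STAT3 on self-renewal, had -0.01 and -0.0084, and the changes of Klf5, Myc and Mcl1 were -0.04, -0.12 and -0.04. Sgk1 lay below both uninduced arrays on every induced array by 0.01 at the nearest. Counted with the 5 target genes among the members, 11 of 16 targets had a lower mean, where 45.3% of all genes did. Every induced array was below both uninduced arrays in 3 of the 16 (18.75%, against 3.08% of all genes), namely Socs3, Klf4 and Sgk1. Pim1 was the 1 target in which every induced array was higher (6.25%, against 1.65% of all genes). These shares count Socs3 and Pim1 again, and the lists were chosen with earlier results of these data known. Many of the lower means were small, and the median change of the 16 was -0.02. The targets were not tested as a set.

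**Figure D4:**
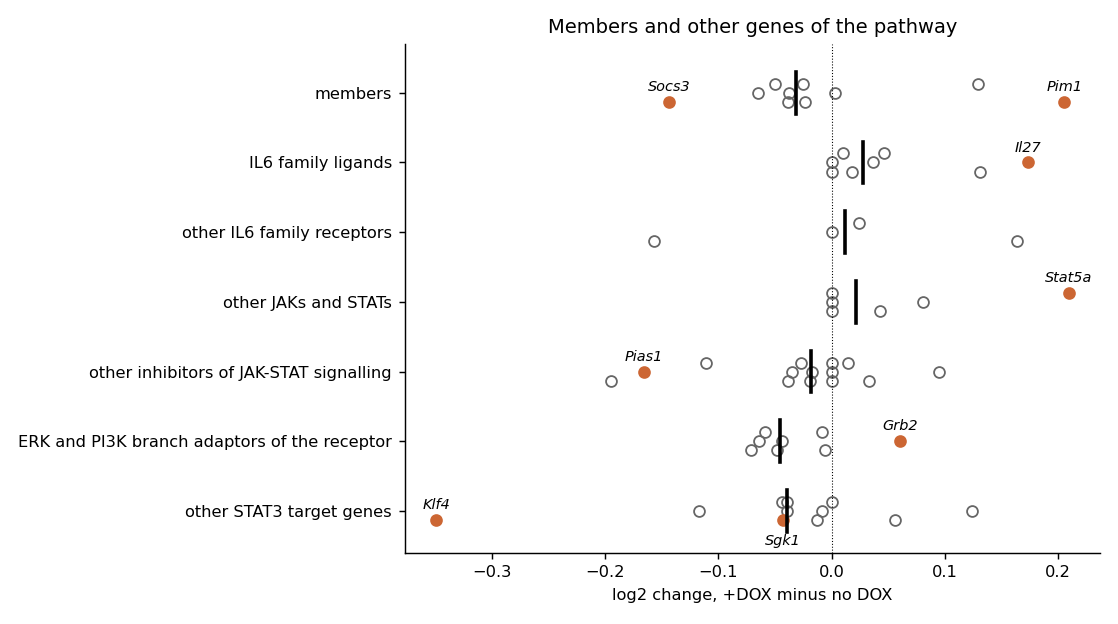
Log2 change, induced minus uninduced, of the 10 members and of the measured genes of 6 related lists; black bars are list medians. Filled orange points are named genes whose induced arrays all lie to one side of both uninduced arrays, which applies to 2 members and 6 other genes, and open circles are the rest.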

How the data were processed

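The deposited table holds log2 values of 35557 probe sets on 5 arrays, made by the authors with RMA, per the submitters' processing notes. The sources used here name neither array software nor genome build, and the log2 scale was read from the values (0.79 to 13.1). RMA equalises arrays, so a shift of all transcripts would not be seen. The array's annotation table gave 1 symbol for 21789 probe sets, several for 1621 and none for 12147. Symbols of all 10 members matched RefSeq by gene identifier.

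Induced and uninduced arrays, grouped by title, were compared in R 4.3.3 with lmFit and eBayes of limma 3.58.1, no trend, over 19938 genes, with Benjamini-Hochberg adjustment and a threshold of 0.05. A further fit took the prior from the 1800 genes with 5 distinct values (prior SD 0.086, against 0.0050 in limma). An exact permutation test was left out because, with 10 splits of the arrays, its smallest possible p is 0.1. No filter on low values was applied. Both fits were run on simulated data with and without ties, but limits on recovery and false calls were set only for limma without ties. How well the shared-spread fit performs with ties is not shown here.

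Members, lists and tests were chosen with earlier results of these data known. Members are named whatever their result, and from each list up to 4 genes per direction whose induced arrays lie to one side of both uninduced arrays; other genes were named after their values were seen. List genes without a probe set of that single symbol are not reported here. Alternatives were the mean of probe sets, genes at or above the median level, centred arrays, repeated quantile normalization, eBayes with trend and robust, untied genes, the title number as a block, feeder and immediate early means as covariates, and each array left out. Leaving out each array with the shared spread was added after seeing the data.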

Additional observations from a re-analysis of the deposited data

How the results depend on the processing

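Over 20 alternatives, 190 changes of single members were recomputed. Of these, 181 kept their direction, 4 were exactly 0 and 5 turned. The counts say little about stability, because many of these changes could not differ. Fits that alter only the spread or the genes tested return the same change, and the mean of probe sets can alter only Socs3. Shared-spread fits with an array left out repeat the changes of limma's fits, so their zeros and turns are counted again. Jak2 turned to -0.028 with the feeder mean as a covariate and to -0.030 without induced array 2, with either spread, and Stat3 turned to 0.067 without uninduced array 2, with either spread. With single arrays left out, Jak2 ran from -0.030 to 0.22, Stat3 from -0.17 to 0.067 and Pim1 from 0.10 to 0.31. The median over members was -0.018 with quantile normalization applied again and 0.070 with only untied genes, where Il6st and Pim1 alone remained; it lay between -0.039 and -0.018 with single arrays left out, shared spread included. The count of members called, 0 in both directions, ran from 0 to 2 higher and from 0 to 1 lower with single arrays left out, and that of other pathway genes from 0 to 2 higher and from 0 to 4 lower. Those calls arose with a lone uninduced array, where 1980 and 1979 genes passed; with the shared spread and any array left out, 0 members passed.

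Over all genes, 2 higher and 1 lower became 0 and 0 with centred arrays, genes at or above the median level, quantile normalization, the replicate block and either covariate, 1 and 0 with the shared spread, and 1 higher with untied genes. With single arrays left out these counts ran from 0 to 1051 higher and from 0 to 1097 lower, and with the shared spread as well they were 1 and 0 each time. The cause of these shifts was not tested. With a lone uninduced array, the spread of a gene came from the induced arrays alone, and the part of ties in it was not tested either. Same-numbered arrays were not shown to be paired (correlations of their deviations -0.0063 and 0.0063), and the replicate block gave 0 members called and a Pim1 change of 0.20. Induced array 3 has no same-numbered uninduced array, so the changes in the block fit equal those without induced array 3. The number of arrays limits all values.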
